A study of Mus musculus with 6 samples.

Results

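Glycolysis enzyme genes were followed in cells of the developing mouse lung, namely Hk1, Hk2, Gpi1, Pfkl, Pfkp, Aldoa, Pgk1, Eno1, Pkm and Ldha. These 10 genes were chosen by name, as enzymes of the pathway from glucose to lactate, out of 31053 features in the count matrices, and all 10 were present in the 6 libraries. Another feature that is also named Aldoa was kept apart, and its UMIs are not part of the Aldoa values below. Glycolysis splits glucose into pyruvate in the cytosol and yields ATP without oxygen, and lactate dehydrogenase turns pyruvate into lactate and restores NAD+ so that the pathway can go on. Hexokinases (Hk1, Hk2) trap glucose in the cell, glucose phosphate isomerase (Gpi1) and phosphofructokinase (Pfkl, Pfkp) prepare and commit the sugar, aldolase (Aldoa) splits it, and phosphoglycerate kinase (Pgk1), enolase (Eno1) and pyruvate kinase (Pkm) carry later steps, those of Pgk1 and Pkm yielding ATP. Endothelial cells are known for a strong reliance on glycolysis, and several of these genes are textbook targets of the hypoxia-inducible factors.

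The study profiled single cells with droplet 3′ tags from mouse lungs that carried DsRed knocked into Cxcl12, the gene of a chemokine ligand and a marker of lung arteries. Cells positive for the reporter were sorted from pooled Cxcl12DsRed/+ lungs on embryonic days E13.5, E15.5 and E18.5 and on postnatal day P8 after removal of EpCAM and CD45 positive cells, and both CD31+ endothelial cells and CD31- mesenchymal cells were collected. The sort note in the labels calls the reporter tdTomato, and the design text DsRed. Unsorted E18.5 lungs gave 2 further libraries, labelled Cxcl12DsRed/+ (control) and Cxcl12DsRed/DsRed (null). All groups thus carried at least 1 DsRed allele, no wild-type lung was analysed here, and each condition was 1 library, so no test between conditions was possible and the intervals below cover counting error only.

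The targeted gene went against the genotype labels of the whole lungs. In endothelial cells Cxcl12 was at 573 CPM (UMIs of the gene scaled to 1000000 UMIs of the summed population) in the library labelled null and at 5.32 CPM in the library labelled control, and in mesenchymal cells at 44.9 and 0.316 CPM. The names of the deposited data gave the opposite genotypes as well. The libraries are therefore called by their labels throughout, and no direction between them can be assigned to a genotype.

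The libraries held 63746333 to 117522172 UMIs in 8845 to 13098 barcodes, of which 7449 to 12726 were kept with at least 700 genes and a mitochondrial share of 0.5% to 10%. Cells were classed by UMIs of a few genes, as endothelial (at least 2 of Pecam1 and Cdh5), mesenchymal (at least 5 of Col1a1 and Col3a1), epithelial (at least 2 of Epcam and Cdh1) or immune (at least 3 of Ptprc, Laptm5 and Coro1a), and 38 to 645 cells per library that met several gates were left out. The endothelial gate held 172, 8949, 9004 and 8205 sorted cells in time order from E13.5 to P8, and the mesenchymal gate 11248, 2059, 282 and 68. A list of 8 endothelial markers outside the gate (Kdr, Tie1, Cldn5 and others) summed to 3939 to 9244 CPM in the endothelial cells of the 6 libraries and to 44.6 to 143 CPM in the mesenchymal cells. A list of 7 mesenchymal markers summed to 2072 to 6755 CPM in the mesenchymal and 7.74 to 90.8 CPM in the endothelial cells. Pairs of libraries shared 16 to 50 cell barcodes, at most 0.430% of the smaller library.

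Since members of this pathway are textbook hypoxia targets, the windows around their start sites (250 bases before to 50 after, RefSeq, GRCm38.p6) were searched for the core letters of the hypoxia response element, ACGTG and GCGTG, on both strands. Either pentamer was found in 43.8% of 32851 promoters of the same length, ACGTG in 19.6% and GCGTG in 32.4%, so a single match is common. All 10 genes had a promoter entry, several with more than 1 start site, and only Gpi1 had no match in any of its windows. The shares above are per window, so they give no background for this count by gene. The 5 windows below are shown because they are those with at least 2 ACGTG matches, so they were picked for their letters and not for how the genes varied. The share of all promoters with at least 2 ACGTG matches was not computed. Besides Gpi1, 1 window each of Hk1, Aldoa and Pkm held no match and is not shown. Capitals mark every match on either strand, where CACGT and CACGC are the same motifs read from the opposite strand.
Hk1: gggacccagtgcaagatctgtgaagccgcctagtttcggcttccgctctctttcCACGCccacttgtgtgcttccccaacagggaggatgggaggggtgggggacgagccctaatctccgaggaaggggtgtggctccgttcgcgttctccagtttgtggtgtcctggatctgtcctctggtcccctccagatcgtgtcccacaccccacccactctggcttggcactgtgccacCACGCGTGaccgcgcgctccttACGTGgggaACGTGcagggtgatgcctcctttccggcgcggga
Hk2: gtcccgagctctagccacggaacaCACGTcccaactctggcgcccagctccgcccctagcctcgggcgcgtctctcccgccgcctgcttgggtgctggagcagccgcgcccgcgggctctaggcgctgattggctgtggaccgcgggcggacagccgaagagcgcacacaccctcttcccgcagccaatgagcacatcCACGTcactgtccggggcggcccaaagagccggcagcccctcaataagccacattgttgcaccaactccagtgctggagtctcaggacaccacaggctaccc
Pgk1: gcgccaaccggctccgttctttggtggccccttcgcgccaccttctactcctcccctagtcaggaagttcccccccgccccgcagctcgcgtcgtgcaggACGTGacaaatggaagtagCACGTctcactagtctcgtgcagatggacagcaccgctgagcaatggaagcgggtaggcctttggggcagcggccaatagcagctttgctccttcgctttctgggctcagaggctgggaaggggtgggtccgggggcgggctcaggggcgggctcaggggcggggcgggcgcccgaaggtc
Pkm: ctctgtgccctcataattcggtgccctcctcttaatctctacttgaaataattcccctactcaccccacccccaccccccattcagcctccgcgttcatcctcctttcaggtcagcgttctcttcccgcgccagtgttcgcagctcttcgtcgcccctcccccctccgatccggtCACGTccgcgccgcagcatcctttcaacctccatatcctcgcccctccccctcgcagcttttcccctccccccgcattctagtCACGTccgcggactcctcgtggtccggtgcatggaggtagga
Ldha: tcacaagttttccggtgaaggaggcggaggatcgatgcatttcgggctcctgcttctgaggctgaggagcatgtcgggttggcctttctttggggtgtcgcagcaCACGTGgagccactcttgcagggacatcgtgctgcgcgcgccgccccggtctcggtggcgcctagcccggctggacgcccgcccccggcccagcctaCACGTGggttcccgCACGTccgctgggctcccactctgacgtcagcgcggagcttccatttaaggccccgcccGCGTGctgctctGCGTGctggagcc

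The Hk1 window lies at chr10:62340372-62340671 on the minus strand, at an internal start site of a gene that spans chr10:62268855-62379908, and held 2 ACGTG and 3 GCGTG matches, some of which overlap. The window at the outermost Hk1 start held none. The Hk2 window, at chr6:82774405-82774704 on the minus strand, held 2 ACGTG matches, and the Pgk1 window, at chrX:106186850-106187149 on the plus strand, held 2 ACGTG matches. The Pkm window, at chr9:59656977-59657276 on the plus strand, is an internal start site and held 2 ACGTG matches, while the outermost one held none. The Ldha window, at chr7:46845554-46845853 on the plus strand, lies inside the gene span of chr7:46841475-46855627. It held 5 ACGTG and 2 GCGTG matches, with each palindromic CACGTG counted on both strands. The Pkm gene spans chr9:59656368-59679375. The other members lie, on GRCm38, at chr7:34201330-34230336 (Gpi1), chr10:77986947-78010083 (Pfkl), chr13:6579768-6648777 (Pfkp), chr7:126795234-126800751 (Aldoa) and chr4:150236721-150248879 (Eno1). The letters searched are a description of the windows and no factor binding was measured.

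In sorted endothelial cells the sum of the 10 members kept a nearly constant level before birth and was lower after it. The 10 genes together made up 2329, 2309, 2372 and 1391 CPM from E13.5 to P8, a log2 ratio of P8 over E18.5 of -0.77 (95% counting interval -0.78 to -0.76). Sums of the members, here and below, include Eno1, whose reads are uncertain as described below, and were not computed without it. The fall at P8 was shared by several steps of the pathway and was not of one size. All ratios here are on the log2(CPM + 0.5) scale, their intervals are exact intervals of the ratio of CPM, and a gene was counted as past the threshold when it changed at least 1.5-fold among genes with a mean of at least 20 CPM in the groups compared.

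Between E18.5 and P8, 5 of the 8 members over the CPM minimum were past 1.5-fold lower and 0 higher, where 6.67% of all genes were lower by as much. Aldoa, the aldolase of most tissues, was at 535, 528, 557 and 273 CPM from E13.5 to P8, so the first 3 libraries lay close together and P8 stood apart, with a log2 ratio of P8 over E18.5 of -1.03 (-1.06 to -1.002). Pkm, whose 3′ tags do not separate its splice forms, followed the same course at 542, 512, 514 and 269 CPM, with a log2 ratio of -0.93 (-0.96 to -0.91). Pfkl, the liver-type subunit of the committing enzyme, was at 77.0, 67.2, 126 and 67.4 CPM. It thus had its highest level at E18.5, 0.91 (0.86 to 0.96) above E15.5, and was back at the E15.5 level at P8, -0.90 (-0.96 to -0.85) against E18.5.

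The make-up of the endothelial class differed between these libraries, and the size of the fall at P8 differed between sets of cells. Cells high in the arterial connexins Gja4 and Gja5 were 3742 of 9004 endothelial cells at E18.5 and 1552 of 8205 at P8. Within them Aldoa went from 645 to 459 CPM (-0.49, -0.54 to -0.44), short of 1.5-fold, and within cells high in the capillary gene Gpihbp1 from 429 to 190.5 CPM (-1.17, -1.28 to -1.07). Pgk1 was past the threshold in the Gja4/Gja5-high cells (-0.92) and short of it in the Gpihbp1-high cells (-0.55). Pkm was past it in both, at -0.71 and -1.25, as were Pfkl (-0.65 and -0.95) and Eno1. Thus 4 of 8 members were past 1.5-fold lower in either set and 0 higher, where 6.60% and 6.71% of all genes were lower by as much. Without Eno1, whose reads are uncertain as described below, these were 3 of 7.

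Pgk1, the first ATP-yielding step, was the only member past 1.5-fold lower before birth. Its level was 309, 289, 185 and 109.8 CPM from E13.5 to P8, with log2 ratios of -0.64 (-0.68 to -0.61) between E15.5 and E18.5 and -0.75 (-0.80 to -0.71) between E18.5 and P8. Over the whole interval from E15.5 to P8 its log2 ratio was -1.39 (-1.43 to -1.36). Between E15.5 and P8, 4 of 8 members were past 1.5-fold lower (Aldoa, Pgk1, Eno1 and Pkm), or 3 of 7 without the uncertain Eno1, and 0 higher, where 12.3% of all genes were lower by as much. Between E15.5 and E18.5 the 2 of 8 members past 1.5-fold moved in opposite directions, Pfkl higher and Pgk1 lower, where 31.5% of all genes were past it in either direction (20.9% higher and 10.6% lower). When only cells of 4000 to 12000 UMIs were kept, the Pgk1 ratio of that interval was -0.57, just under the threshold, and in Gja4/Gja5-high cells it was -0.39. The Pfkl ratio was 0.56 in Gpihbp1-high cells. From E15.5 to P8 the Aldoa ratio was -0.21 in Gja4/Gja5-high cells.

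Eno1 had the largest ratio at P8, but its reads are uncertain. Its level was 111, 142, 159 and 10.2 CPM over the same libraries, with a log2 ratio of -3.90 (-4.08 to -3.85) against E18.5. Of the stretches of 60 bases in the last 300 bases of its transcripts, 86.5% also occur in Eno1b, a gene counted beside it, so the counting could split or drop its reads. Eno1b itself was at 0.575 to 2.30 CPM in the endothelial cells of the sorted libraries. The level and the direction of Eno1 are therefore reported as uncertain here and below. Without Eno1, 4 of the 5 members past 1.5-fold at P8 remained (Aldoa, Pkm, Pfkl and Pgk1).

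Ldha, Gpi1 and Hk1 stayed within 1.5-fold between successive time points. Ldha was at 439, 459, 462 and 377 CPM, -0.29 (-0.32 to -0.27) at P8 against E18.5, and Gpi1 at 264, 260.0, 304 and 229.6 CPM, -0.41 (-0.44 to -0.37). Hk1, the hexokinase held to be the housekeeping form, was at 39.7, 32.4, 45.9 and 36.9 CPM, so P8 lay within the range of the embryonic libraries. Pfkp, the platelet-type phosphofructokinase, was at 8.92, 17.0, 18.1 and 16.6 CPM, and Hk2, the inducible hexokinase, at 4.05, 2.21, 0.859 and 2.004 CPM. Both were under the minimum. Hk2 was lowest at E18.5, where its interval (0.638 to 1.13 CPM) lay under those at E15.5 (1.91 to 2.54) and P8 (1.66 to 2.39), while the Pfkp value at E13.5 (4.45 to 16.0) rested on 11 UMIs. Between E13.5 and E15.5 none of 8 members was past 1.5-fold, while 17.2% of all genes were, and the 172 endothelial cells at E13.5 left wider intervals.

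**Figure D1:**
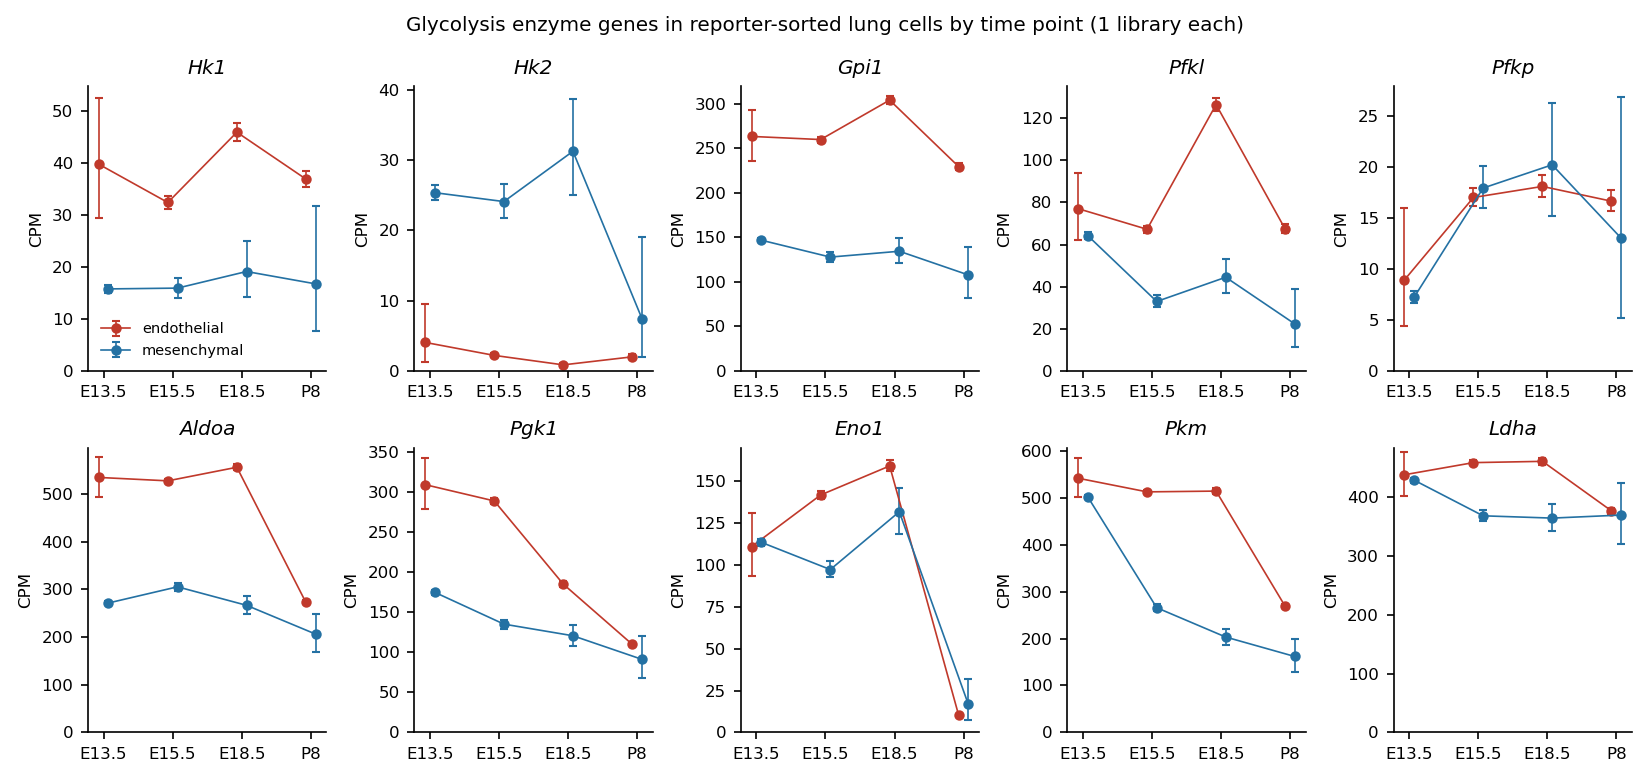
CPM (y axis, linear, from 0) of each of the 10 genes at the 4 time points (x axis) in sorted endothelial (red) and mesenchymal (blue) cells; each point is the summed UMIs of 1 library and each bar its exact 95% Poisson interval. In endothelial cells Aldoa and Pkm stay level to E18.5 and are lower at P8, Pgk1 steps down from E15.5 on, Pfkl peaks at E18.5, and Hk2 stays at or under 4.05 CPM at every time point.

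Other genes of the pathway were counted from a list of 30. At P8 against E18.5 in endothelial cells, 6 of them were over the minimum, 4 were past 1.5-fold lower, where 6.67% of all genes were, and 1 higher, where 9.90% were. Tpi1, triose phosphate isomerase, went from 233 to 117 CPM (log2 ratio -0.99). Gapdh, the next enzyme of the chain, went from 749 to 494 CPM (-0.60), although 56.6% of its end stretches also occur in other counted genes, so its value is uncertain. Aldoc, another aldolase, was at 48.7 and 5.26 CPM (-3.10), and Ldhb, the lactate dehydrogenase subunit common in oxidative tissue, at 34.1 and 7.08 CPM (-2.19). Aldoc had first been 3.09 higher at E18.5 than at E15.5, from 5.29 CPM, while Ldhb was already 1.39 log2 units down from 90.5 CPM at E15.5. The gene that was higher at P8 was Bpgm, which diverts a glycolytic intermediate to 2,3-bisphosphoglycerate, at 75.2 against 47.8 CPM (0.65).

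Companion lists set these changes beside neighbouring processes. Of 18 genes for pyruvate import and the citric acid cycle, all over the minimum, 0 were past 1.5-fold at P8 against E18.5, with a median log2 ratio of 0.07. The median of the 8 tested members, the uncertain Eno1 among them, was -0.83 and that of all genes 0.06. Of 15 hypoxia-inducible genes outside glycolysis, 12 were over the minimum, and 6 of these were past 1.5-fold lower and 2 higher at P8, beside the same 6.67% and 9.90% of all genes. Egln3, an oxygen-sensing prolyl hydroxylase, went from 53.7 to 0.871 CPM (-5.30), Bnip3, a mitophagy receptor, from 37.5 to 7.43 CPM (-2.26), and Ndrg1 from 125 to 29.9 CPM (-2.04). Vegfa, the angiogenic growth factor, went the other way, from 49.5 to 206 CPM (2.05).

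Between E15.5 and E18.5 the hypoxia-inducible list and the members did not move alike. Of 12 hypoxia-inducible genes over the minimum 8 were past 1.5-fold higher at E18.5 and 0 lower, where 20.9% and 10.6% of all genes were, with a median of 0.83, while the median of the members was 0.12 and that of all genes 0.16. Ndrg1 was 2.28 log2 units higher, from 25.4 to 125 CPM, and Ankrd37 1.57 higher, from 119.6 to 357 CPM. The dissociation stress genes also differed between libraries: all 10 were past 1.5-fold higher at E18.5 than at E15.5, and at P8 against E18.5 8 were higher and 2 lower. The stress list summed to 997, 1534, 6334 and 12671 CPM in endothelial cells from E13.5 to P8, and its part in the differences over time was not tested.

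**Figure D2:**
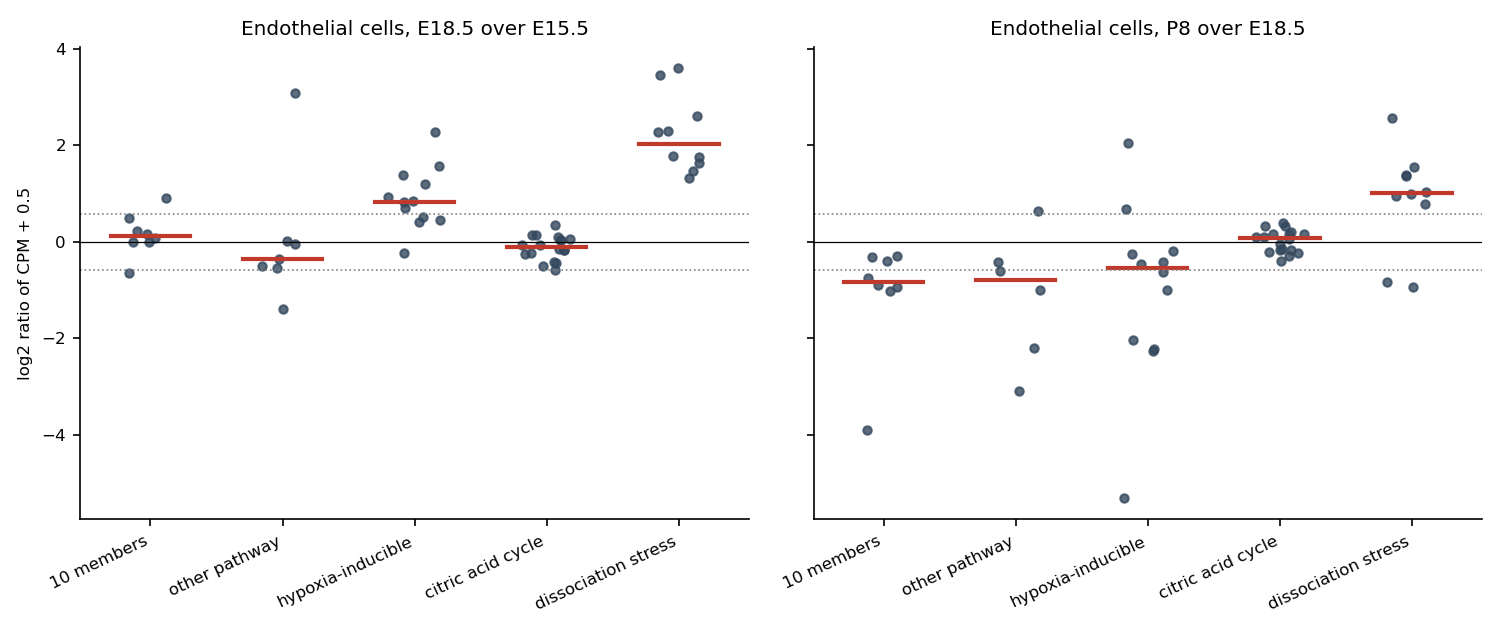
Log2 ratio of CPM + 0.5 (y axis) in sorted endothelial cells for E18.5 over E15.5 (left) and P8 over E18.5 (right); each point is 1 gene over the 20 CPM minimum, the red bar is the median of the list, and dotted lines mark 1.5-fold. At P8 the median of the plotted glycolysis members, the uncertain Eno1 among them, lies at -0.83 with none of them above 0, while the citric acid cycle genes lie around 0 with a median of 0.07. Hk2 and Pfkp, under the minimum, are not plotted.

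Mesenchymal cells sorted for the same reporter held less of the pathway than endothelial cells of the same library at every time point. Their sum was 1751, 1391, 1337 and 1013 CPM in time order, and the log2 ratio to endothelial cells ranged from -0.41 (-0.46 to -0.36) at E13.5 to -0.83 (-0.88 to -0.78) at E18.5. In this class Pkm stepped down early and was at 502, 266, 203 and 162 CPM, with a ratio of -0.92 (-0.96 to -0.87) from E13.5 to E15.5. Pfkl stepped down in the same interval, from 64.3 to 33.0 CPM (-0.95, -1.09 to -0.84), and these were the 2 of 8 members past 1.5-fold lower, where 13.4% of all genes were, with 0 higher. The class itself differed between these libraries: its mesenchymal markers summed to 2072 CPM at E13.5 and 5196 CPM at E15.5. Its stress genes summed to 2523 and 3909 CPM, with 6 of 9 past 1.5-fold higher, where 12.4% of all genes were. The part of these differences in the Pkm and Pfkl ratios was not tested.

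From E15.5 to E18.5 none of 8 members was past 1.5-fold in mesenchymal cells, where 20.5% of all genes were. At P8 the class rested on 68 cells, and 2 of 7 members were past 1.5-fold lower than at E18.5, where 11.4% of all genes were, and 0 higher. Eno1, uncertain as above, was at 132 and 16.7 CPM (-2.94, -4.12 to -2.04), and Pfkl at 44.5 and 22.3 CPM (-0.98, -1.99 to -0.14). The Pfkl ratio was -0.19 when cells that met several gates were kept. Ldha hardly varied, at 429.5, 369, 365 and 370.1 CPM, and Pgk1 was at 175, 135, 121 and 91.1 CPM, a decline of the same direction as in endothelial cells with wider intervals at the end.

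Set against endothelial cells of the same library, the members past 1.5-fold lower in mesenchymal cells numbered 4 of 8, 6 of 8, 6 of 8 and 4 of 7 in time order, and 0 were higher. The shares of all genes lower by as much were 18.6%, 20.0%, 24.8% and 24.6%. Of the other pathway genes over the minimum, 1 was past 1.5-fold higher at each time. Of 6, 5, 7 and 5 such genes, 2, 1, 2 and 1 were lower. Their median log2 ratios were 0.14, 0.19, -0.14 and 0.37, where those of all genes were -0.02, -0.11, -0.15 and -0.07. The stress genes also differed between the classes, with 5 of 8, 6 of 9, 6 of 10 and 3 of 10 past 1.5-fold higher in mesenchymal cells and 0, 0, 1 and 4 lower. Of all genes 16.4%, 16.8%, 16.8% and 19.5% were higher by as much, and the part of the stress genes in the member ratios was not tested. Hk1 and Gpi1 were past it at all 4 times. Some calls near the threshold were lost under 1 alternative or more: Aldoa at E15.5 was at -0.51 in cells without a Top2a UMI, and with cells of several gates kept Pgk1 at E18.5 was at -0.52 and Pfkl and Pkm at P8 were at -0.52 and -0.43. Hk1 stayed between 15.8 and 19.1 CPM in mesenchymal cells against 32.4 to 45.9 in endothelial cells, and Gpi1 between 108 and 147 against 229.6 to 304. Aldoa, at 272, 306, 267 and 206 CPM in mesenchymal cells, had log2 ratios of -0.98, -0.79 and -1.06 before birth and -0.40 (-0.68 to -0.13) at P8, where the endothelial level was itself lower. Ldha differed less than 1.5-fold between the classes at every time, with log2 ratios of -0.03, -0.32, -0.34 and -0.03.

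Hk2 was higher in mesenchymal cells at the 3 embryonic times, although its mean stayed under the minimum for the count above. It was at 25.3, 24.1, 31.2 and 7.44 CPM in mesenchymal cells from E13.5 to P8, the last from 4 UMIs, against 4.05, 2.21, 0.859 and 2.004 CPM in endothelial cells. At P8 the counting interval of the log2 ratio ran from -0.01 to 3.29 and took in 0. As a share of all Hk1 and Hk2 UMIs, which compares the pair within 1 population, Hk2 made up 61.7% (exact binomial interval 60.1% to 63.2%), 60.2% (56.4% to 63.9%) and 62.0% (53.4% to 70.2%) in mesenchymal cells of the 3 embryonic libraries. At P8 it was 30.8% of 13 UMIs, with an interval of 9.09% to 61.4%. In endothelial cells the share was 9.26% (3.08% to 20.3%), 6.39% (5.54% to 7.31%), 1.84% (1.37% to 2.42%) and 5.15% (4.30% to 6.12%). The intervals of the classes did not overlap in any of the 4 libraries.

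The whole lungs gave the same division between hexokinases and extended it to other classes. With the label control, Hk2 was at 2.09 CPM in endothelial, 69.2 in mesenchymal, 76.2 in epithelial and 124 in immune cells, and in the library labelled null at 1.55, 41.3, 54.4 and 92.2 CPM. Hk1 ran the other way, at 42.9 CPM in endothelial cells against 12.9, 11.5 and 20.4 in the other classes of the library labelled control, and at 34.6 against 13.3, 15.7 and 14.98 in the library labelled null. The Hk2 share was 4.63% in endothelial cells and 84.3%, 86.9% and 85.9% in mesenchymal, epithelial and immune cells of the library labelled control. It was 4.29%, 75.7%, 77.6% and 86.0% in the library labelled null. Droplets also hold free RNA: after the authors' SoupX adjustment Hk2 in endothelial cells was at 0.344 CPM in the library labelled control and 0.0631 CPM in that labelled null, lower than without it, while it stayed at 89.4 and 45.0 CPM in mesenchymal cells.

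**Figure D3:**
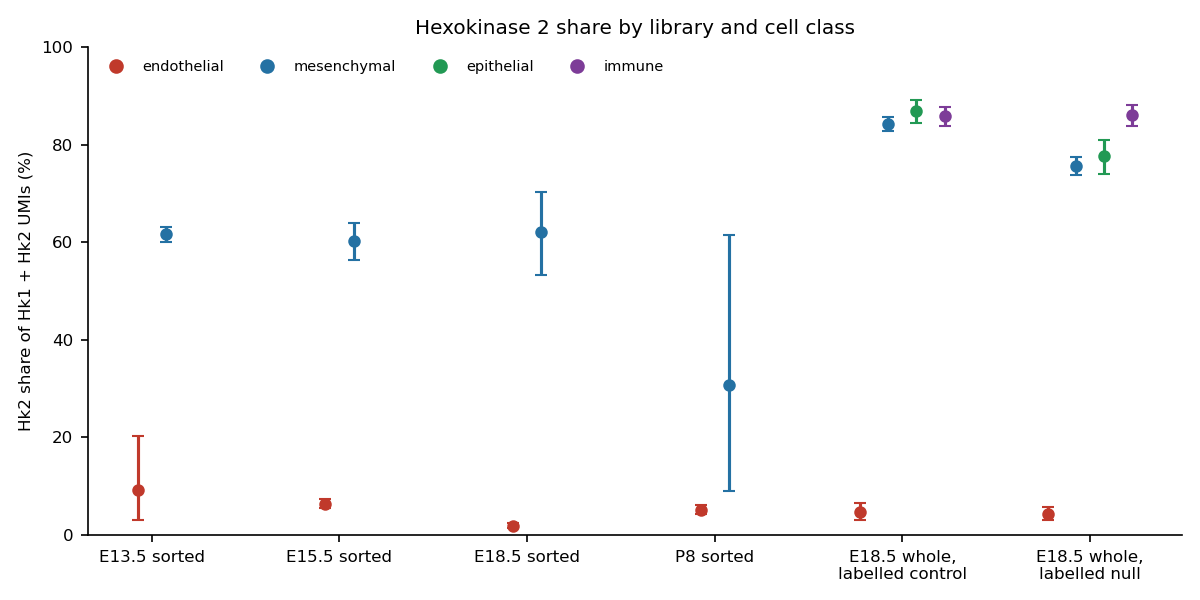
Hk2 as a share of Hk1 and Hk2 UMIs (y axis, percent) in each library (x axis) by cell class (colour), with exact 95% binomial intervals. Endothelial cells of all 6 libraries lie at or under 9.26%, while mesenchymal cells lie between 60.2% and 84.3% except in the P8 library, where 13 UMIs gave 30.8%; epithelial and immune cells of the whole lungs lie between 77.6% and 86.9%.

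By class, the whole E18.5 lungs held the highest summed level of the 10 genes in immune cells. With the label control the sum was 3123 CPM in 558 immune cells, 1982 in 1632 endothelial cells, 1769 in 567 epithelial cells and 1214 in 3760 mesenchymal cells. With the label null the sums were 3224 in 635 immune cells, 2356 in 2609 endothelial cells, 2290 in 405 epithelial cells and 1304 in 4471 mesenchymal cells. The order was the same in both. The epithelial and endothelial sums were neighbours, 0.16 and 0.04 log2 units apart, and with 1 library a label no spread between lungs was available to rank these 2 classes.

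Immune cells differed from endothelial cells in which isozymes they held. With the label control, 7 of 10 members were past 1.5-fold, where 55.3% of all genes were in either direction. They were 5 higher, where 22.2% of all genes were, and 2 lower, where 33.1% were. The 5 were Hk2, Pfkp, Aldoa, Pgk1 and Eno1, the last uncertain as above. Aldoa was at 946 against 459 CPM (1.04, 1.00 to 1.09; 1.59 with SoupX counts), Pgk1 at 259 against 130.3 (0.99, 0.90 to 1.08), and Pfkp at 63.2 against 21.6 (1.52, 1.34 to 1.75). Pfkl was lower, at 60.4 against 99.6 CPM (-0.72, -0.87 to -0.57), or -0.46 after TMM scaling and -1.14 with SoupX counts, and Hk1 was the other member past the threshold in that direction. Pfkp thus made up 51.1% (48.0% to 54.2%) of Pfkl and Pfkp UMIs in immune cells and 17.9% (16.1% to 19.8%), 11.6% (10.2% to 13.2%) and 4.59% (3.31% to 6.18%) in endothelial, mesenchymal and epithelial cells.

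The library labelled null had the same 5 members of 10 higher and the same 2 lower, where 54.9% of all genes were past 1.5-fold (24.2% higher and 30.7% lower), and a Pfkp share of 54.7% in immune cells. Aldoa was 0.69 and Pgk1 0.78 log2 units higher in immune than in endothelial cells there, but 0.40 and 0.42 when only cells of 4000 to 12000 UMIs were kept, where the uncertain Eno1 was at 0.46 and 4 of the 7 remained past the threshold, and 0.47 and 0.57 when cells that met several gates were kept. Of the other pathway genes in the library labelled control, 8 of 9 over the minimum were past 1.5-fold higher in immune cells and 0 lower, where 22.2% and 33.1% of all genes were in that library. Pfkfb4, a regulator that makes the activator of phosphofructokinase, was at 49.6 against 0.791 CPM (5.28), and Slc16a3, a lactate exporter, at 62.2 against 5.03 CPM (3.50). The stress genes summed to 6146 CPM in immune and 3345 CPM in endothelial cells with the label control, with 6 of 8 past 1.5-fold higher and 1 lower. With the label null they summed to 6371 and 3608 CPM, with 6 of 8 higher and 2 lower. Their part in the member ratios was not tested.

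Epithelial cells differed from endothelial cells in about the same share of members as of all genes. Of 9 members in the library labelled control, 1 was past 1.5-fold higher (Hk2) and 4 lower (Hk1, Gpi1, Eno1 and Pkm), where 54.8% of all genes were past it in either direction. Of 9 in the library labelled null, 2 were higher (Hk2 and Ldha) and 3 lower (Hk1, Gpi1 and Pkm), where 55.5% of all genes were. With the label control Eno1, uncertain as above, was past the threshold in 7 of 13 alternatives, and with the label null Gpi1 was at -0.58 when cells of several gates were kept. The immune markers summed to 697 CPM in epithelial cells with the label null and 276 CPM with the label control, against 16355 to 20733 CPM in immune cells, and their part in the epithelial values was not tested. Ldha was at 517 against 349 CPM (0.57, 0.51 to 0.63) and at 678 against 415 CPM (0.71, 0.66 to 0.76), on either side of the threshold, and with SoupX counts it was at 521 against 251 CPM in the library labelled control and 708 against 395 CPM in that labelled null. Pkm was at 196 against 457 CPM (-1.22, or -2.51 with SoupX counts) and at 284 against 555 CPM (-0.97, or -1.18 with SoupX counts). Aldoa, at 474 and 459 CPM in epithelial and endothelial cells of the library labelled control, differed by 0.05 (-0.01 to 0.10). Ldhb was far higher in epithelial cells, at 269 against 21.5 CPM with the label control (3.62). Of the other pathway genes over the minimum, 4 of 7 with the label control and 5 of 9 with the label null were past 1.5-fold higher. In both libraries 0 were lower, and the medians of the list were 0.80 and 0.69. Of all genes 17.5% were higher by as much in each library, and 37.3% and 38.0% lower.

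Mesenchymal cells of both whole lungs had Hk1, Gpi1, Pfkl, Aldoa, Pgk1 and Pkm past 1.5-fold lower than endothelial cells and Hk2 higher. These were 7 of 9 members, where 41.6% of all genes were past it in either direction with the label control and 41.2% with the label null. Stress genes were higher in mesenchymal than in endothelial cells here too, at 9934 against 3345 CPM in sum with the label control (7 of 8 past 1.5-fold) and 9828 against 3608 CPM with the label null (6 of 8), and their part was not tested. Pkm was at 164 against 457 CPM (-1.48, -1.54 to -1.43) and at 178 against 555 CPM (-1.64, -1.68 to -1.60). With SoupX counts these members kept their direction in both libraries and their ratios lay further from 0, more so with the label control. There the ratios were -2.52 for Pkm, -3.44 for Gpi1 in place of -1.66, -2.80 for Aldoa in place of -0.86 and -1.97 for Pgk1 in place of -0.88. With the label null they were -2.10 for Pkm, -2.04 for Gpi1 in place of -1.60, -1.39 for Aldoa in place of -1.01 and -1.23 for Pgk1 in place of -0.99. Ldha was again nearly level, at 398 against 349 CPM (0.19) and 407 against 415 CPM (-0.03).

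**Figure D4:**
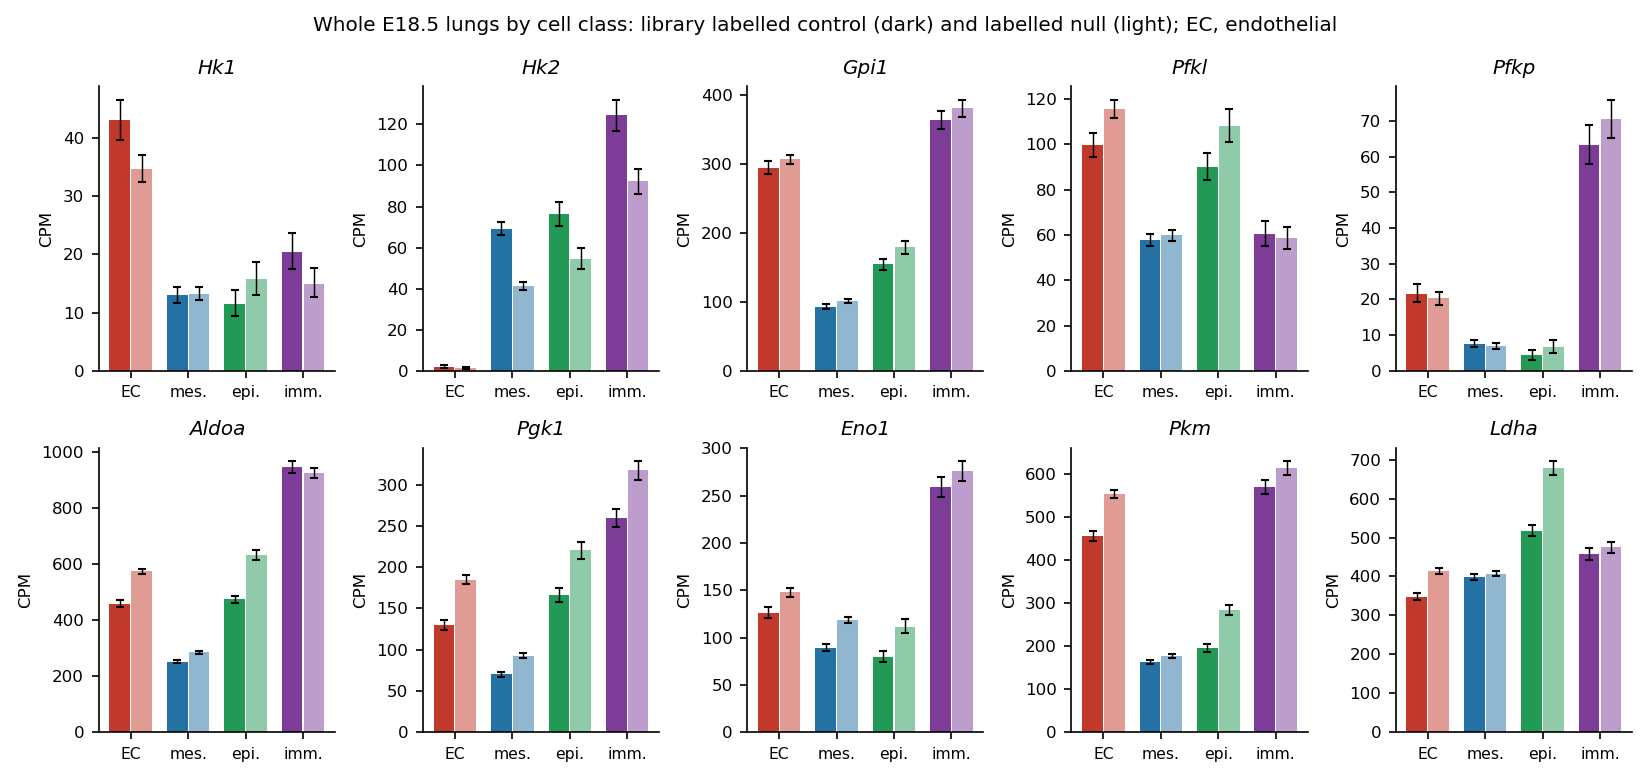
CPM (y axes, linear, from 0) of each gene in endothelial (EC), mesenchymal (mes.), epithelial (epi.) and immune (imm.) cells of the whole E18.5 lungs, dark bars for the library labelled control and light bars for that labelled null, with exact 95% Poisson intervals. Hk1 is highest in endothelial cells and Hk2 near 0 there, and Ldha is highest in epithelial cells. Immune cells lead in Hk2, Gpi1, Pfkp, Aldoa, Pgk1 and Pkm, and in Eno1, whose reads are uncertain.

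Between the whole-lung libraries, whose labels go against Cxcl12, the members differed by less than 1.5-fold with 1 exception. None of 9 members over the minimum was past 1.5-fold in endothelial cells, where 1.65% of all genes were, none of 8 in epithelial (2.06%) and none of 9 in immune cells (2.22%). In endothelial cells the ratios of the library labelled null over that labelled control ran from -0.31 (Hk1) to 0.50 (Pgk1, 185 against 130.3 CPM, 0.43 to 0.58). Their median was 0.23 over the 9 members tested, where that of all genes was -0.007. In epithelial cells the ratios ran from -0.48 (Hk2) to 0.53, with a median of 0.40 over the 8 members tested, where that of all genes was -0.005. In mesenchymal cells 1 of 8 members was past the threshold, Hk2, lower at 41.3 against 69.2 CPM (-0.74, -0.84 to -0.65), where 0.976% of all genes were lower by as much. Hk2 was also lower in the library labelled null in epithelial (-0.48, -0.66 to -0.31) and immune cells (-0.43, -0.56 to -0.30), short of 1.5-fold. Companion lists did differ in endothelial cells. There 2 of 7 other pathway genes over the minimum were past 1.5-fold higher with the label null, and 0 lower. So were 3 of 12 hypoxia-inducible genes, with 0 lower, where 0.992% of all genes were higher by as much. In mesenchymal cells 1 of 13 hypoxia-inducible genes was higher and 0 lower. No further gene of either list was past 1.5-fold in mesenchymal, epithelial or immune cells.

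The SoupX adjustment changed this comparison. It removed 37.4% to 40.2% of the UMIs of each class in the library labelled control and 17.0% to 18.4% in that labelled null, and larger shares of all genes were then past 1.5-fold. In endothelial cells 3 of 9 members were (10.2% of all genes on the same counts), in mesenchymal cells 5 of 8 (10.3%) and in epithelial cells 4 of 8 (16.1%), in either direction, and in immune cells 1 of 9, Hk2, lower (2.64% of all genes). Aldoa in mesenchymal cells went from 252 to 54.1 CPM in the library labelled control and from 285 to 216 CPM in that labelled null, so that its ratio was 1.99 in place of 0.18. Pgk1 and Gpi1 went to 1.35 and 1.34 in the same class. Hk2 kept its direction in mesenchymal cells, at -0.98, and in epithelial and immune cells was at -0.70 and -0.71. The unequal share removed moved with the label, and its part in these ratios was not tested.

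Cycling cells, those with at least 2 UMIs of Top2a, a topoisomerase of dividing cells, differed little in the pathway as a whole. Their sum differed from that of the other cells of the same library and class by log2 ratios between -0.24 (mesenchymal, E15.5) and 0.10 (mesenchymal, E13.5) outside the epithelial cells, where it was -0.40. Single steps differed more, and in opposite directions. The comparison covered 11 populations of 68 to 3253 cycling cells, whose median UMIs were 1.52 to 2.37 times those of the other cells.

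Aldoa was lower in cycling cells in 11 of 11 comparisons, with log2 ratios from -1.40 to -0.05, also after TMM scaling and without ribosomal genes. The share of all genes with the same sign in all 11 was not computed, and the comparisons share libraries and classes. In endothelial cells it was at 457 CPM in cycling and 556 in other cells at E15.5 (-0.28, -0.31 to -0.25), 307 and 579 at E18.5 (-0.92, -0.99 to -0.84) and 109 and 288 at P8 (-1.40, -1.53 to -1.29). The ratio lay further from 0 at the later times, and with cells of 4000 to 12000 UMIs it was -0.43, -1.02 and -2.16 in the same order. It was the only member past 1.5-fold at E18.5 and P8, of 8 and 7 over the minimum, where 7.54% and 4.17% of all genes were lower by as much, and none of 8 was at E15.5, where 15.3% of all genes were past 1.5-fold in either direction. In the whole lungs Aldoa was again the only one of 9 in endothelial cells, at 390 against 613 CPM in the library labelled null (-0.65, with 6.54% of all genes lower by as much) and 291 against 491 CPM in that labelled control (-0.75, with 6.75%). Both values fell under the threshold, to -0.51 and -0.55, when cells that met several gates were kept. In the sorted endothelial cells the sum of cycling markers was larger in the Gpihbp1-high than in the Gja4/Gja5-high set. These sums were 1609 versus 702 CPM (E15.5), 1024 versus 149 (E18.5) and 861 versus 154 (P8). Between these sets Aldoa was level at E15.5. It was lower in the Gpihbp1-high set by 0.59 log2 units at E18.5 and 1.27 at P8. The part of the vessel sets in the cycling ratios of Aldoa was not tested.

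The other lists were counted over the same comparisons. Of the other pathway genes over the minimum, 3 of 4 were past 1.5-fold higher in cycling mesenchymal cells labelled control and 1 of 4 in those labelled null. There 13.9% and 11.8% of all genes were higher by as much, and the medians of the list were 0.70 and 0.47. In immune cells labelled null 3 of 9 were lower, where 7.46% of all genes were. Elsewhere at most 1 was higher and at most 2 were lower. Of the hypoxia-inducible genes over the minimum, 0 were past 1.5-fold higher in any of the 11 comparisons and up to 5 were lower, with at least 1 lower in 10 of the 11. Over these comparisons 3.91% to 12.7% of all genes were lower by as much and 6.48% to 30.8% higher. Stress genes were past 1.5-fold lower in the 6 comparisons of the whole lungs, from 1 of 8 in endothelial cells to 6 of 8 in mesenchymal cells labelled control, and in none of the sorted ones. In the sorted libraries 1 of 8 stress genes was higher in cycling mesenchymal cells at E13.5 and 1 of 9 in cycling endothelial cells at E15.5. The part of these lists in the Aldoa ratios was not tested.

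In mesenchymal cells Aldoa was at 151 CPM in cycling and 379 in other cells at E15.5 (-1.32, -1.43 to -1.22), the only one of 8 members past 1.5-fold there, where 5.60% of all genes were lower by as much, and at 230 and 298 at E13.5 (-0.38), where none of 8 was and 10.4% of all genes were past it in either direction. Pgk1 went the other way in mesenchymal cells of the whole lungs, at 169 against 89.6 CPM in the library labelled null (0.91, 0.73 to 1.10) and 116 against 69.0 in that labelled control (0.75, 0.46 to 1.03). In the library labelled null Pgk1, Aldoa (-0.85) and Hk2 (-0.80) were the 3 of 8 past the threshold, where 21.7% of all genes were past it in either direction. In that labelled control 3 of 8 were higher, Pgk1, Pkm (0.65) and Eno1 (0.62, uncertain), and Hk2 was lower (-0.81), where 26.5% of all genes were past the threshold in either direction. With cells of several gates kept, the Aldoa and Hk2 ratios of the library labelled null were -0.10 and -0.35, and with the label control Eno1 was at 0.25 and Pkm at 0.53. In the latter library Pgk1 was at 0.44 with the Mki67 gate, and Pkm and Eno1 were past the threshold in 8 and 6 of 11 alternatives.

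Pgk1 and Pkm were higher in cycling cells in 10 of 11 comparisons each, and in 9 of 11 when ribosomal genes were left out of the total, though mostly by less than 1.5-fold. Such tallies count signs, do not weigh the counting intervals and have no share of all genes beside them. The ratios ran from -0.30 to 0.91 for Pgk1 and from -0.24 to 0.65 for Pkm. Hk1 was lower in 10 of 11, under each scaling, with the largest drop in a class over the minimum at -0.51. Hk2 was over the minimum in 6 of these comparisons and past the threshold, lower, in the 4 of the whole lungs. In sorted mesenchymal cells it was at 25.3 CPM in cycling and 25.4 in other cells at E13.5 (0.00, -0.12 to 0.12) and at 17.9 and 27.0 at E15.5 (-0.58, -0.94 to -0.26), just short of it. It was at 55.5 CPM in cycling and 102 in other immune cells of the library labelled null (-0.87, -1.18 to -0.59), the only one of 9 members there, where 7.46% of all genes were lower by as much. In epithelial cells of the library labelled control it was at 39.6 and 87.8 CPM (-1.14, -1.48 to -0.83), the only one of 8, where 12.7% of all genes were. This count was 6 after TMM scaling, where 1207 of 5471 genes were higher and 1192 lower, and 2 without ribosomal, mitochondrial and haemoglobin genes. Those 68 epithelial cells had a cycling marker sum of 635 CPM, where the other 10 cycling populations had 2766 to 4475 CPM. Their epithelial markers summed to 16875 CPM against 59160 CPM in the other epithelial cells, and their median UMIs were 30169 against 12721. The part of these differences in the Hk2 ratio was not tested.

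**Figure D5:**
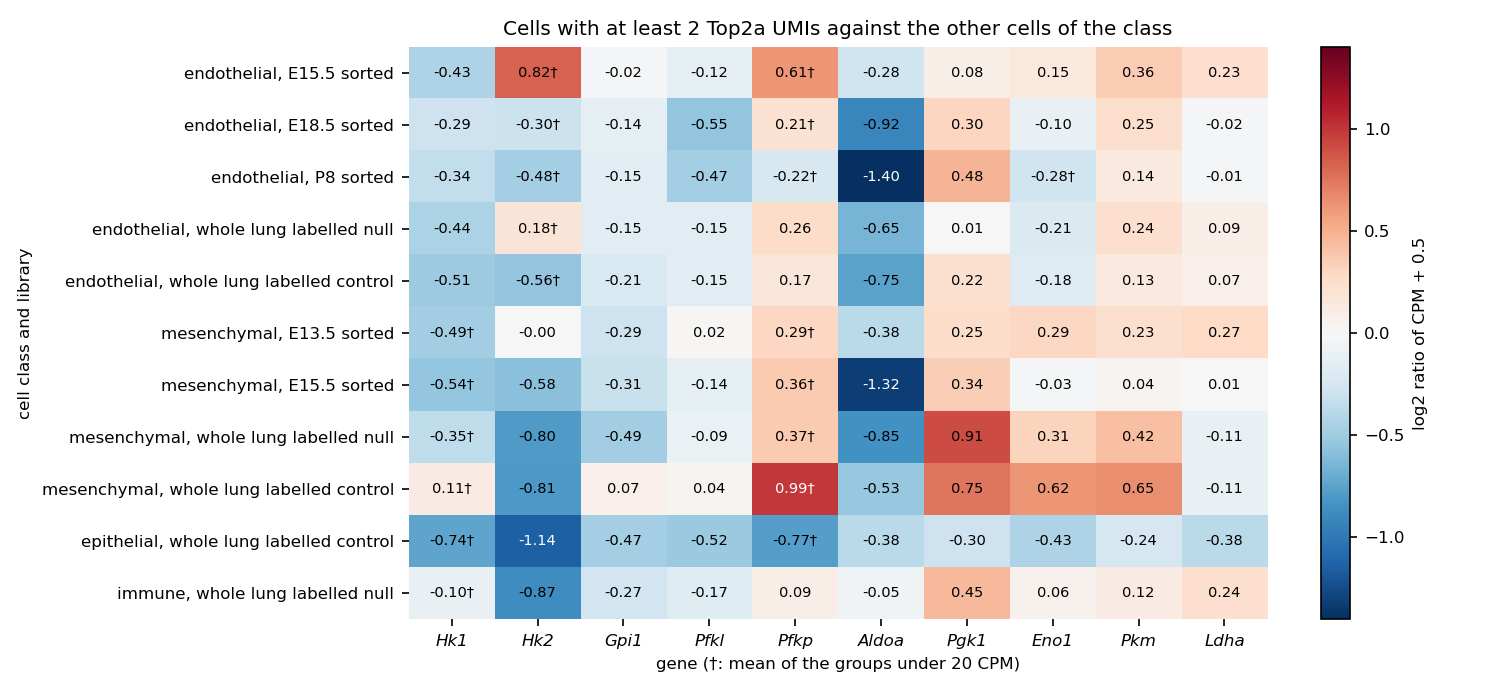
Log2 ratio of CPM + 0.5 in cells with at least 2 Top2a UMIs over the other cells of the same library and class (rows) for each gene (columns); red is higher and blue lower in cycling cells, and a dagger marks genes under 20 CPM. The Aldoa column is negative in all 11 rows, down to -1.40 in endothelial cells at P8, while Pgk1 and Pkm are positive in every row but the epithelial one.

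Endothelial cells were also split by UMIs of vessel genes, into cells high in Gja4 and Gja5 (arterial connexins), in Gpihbp1 (a lipase anchor of capillaries) and in Car4 (carbonic anhydrase 4), leaving out cells high in more than 1. The Gja4/Gja5-high and Gpihbp1-high sets held 5415 and 1067 cells at E15.5, 3742 and 1709 at E18.5, and 1552 and 898 at P8, and at E13.5, where 160 of the 172 endothelial cells were Gja4/Gja5-high, no split was made. Pkm and Aldoa were the members that differed most often between the Gja4/Gja5-high and the Gpihbp1-high cells. Pkm was lower in the former, at 412 against 697 CPM at E15.5 (-0.76, -0.80 to -0.72), 402 against 628 at E18.5 (-0.64), and in the whole lungs at 292 against 491 (-0.75) and 402 against 615 (-0.61) for the libraries labelled control and null. At P8 it was at 245 against 264 CPM (-0.11), short of the threshold, and with the label null it was under the threshold in 3 of 10 alternatives (-0.56 to -0.58). Aldoa was level at E15.5, at 531 against 525 CPM (0.02, -0.02 to 0.06), and higher in the Gja4/Gja5-high cells at E18.5, at 645 against 429 CPM (0.59, 0.54 to 0.64), and at P8, at 459 against 190.5 (1.27, 1.17 to 1.38).

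Pkm was the 1 member of 8 past 1.5-fold in this split at E15.5 and in the libraries labelled control and null, where 9.42%, 10.3% and 10.4% of all genes were lower by as much. At E18.5 the 2 of 8 were Aldoa, higher, and Pkm, lower, where 20.0% of all genes were past it in either direction. At P8 Aldoa and Pfkl, at 89.1 against 54.3 CPM (0.71), were the 2 of 7 higher, where 8.00% of all genes were. The E18.5 Aldoa ratio sat on the threshold and was under it in 5 of 10 alternatives. Cycling cells were unevenly spread over the split: at E18.5 the cycling markers summed to 149 CPM in the Gja4/Gja5-high and 1024 CPM in the Gpihbp1-high cells, and at P8 to 154 and 861 CPM. The stress genes summed to 16342 CPM in the Gja4/Gja5-high and 10915 CPM in the Gpihbp1-high cells at P8, with 6 of 10 past 1.5-fold higher and 0 lower. In the same split 3 of 10, 5 of 12 and 5 of 10 hypoxia-inducible genes were past 1.5-fold higher at E15.5, E18.5 and P8. With the labels control and null 4 of 12 and 5 of 12 were. Other pathway genes had 2 of 6, 3 of 7, 2 of 4, 3 of 7 and 3 of 6 higher in that order. In each list 1 gene was lower at E15.5 and 0 elsewhere. Of all genes 14.6%, 10.2%, 8.00%, 13.2% and 13.1% were higher by as much, and 9.01% to 10.4% lower. The part of any of these lists in the Aldoa and Pkm ratios was not tested. Against the Gpihbp1-high cells, the Car4-high cells differed in 1 of 9 members at E18.5, Pgk1, lower at 95.6 against 166 CPM (-0.79, -1.06 to -0.54), where 8.97% of all genes were lower by as much. At P8 they differed in 0 of 7, where 21.9% of all genes were past 1.5-fold in either direction. The cycling markers at E18.5 summed to 109 CPM in the Car4-high and 1024 CPM in the Gpihbp1-high cells, and their part in the Pgk1 ratio was not tested.

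Across 27 populations (library by class, cycling or not, of at least 50 cells) the genes whose log2 level was most like the summed members, out of 6535 with a mean of at least 20 CPM, were Acly, which makes acetyl-CoA for lipid synthesis (Pearson r 0.87), Gapdh (0.85), Shtn1 (0.84), Dbnl (0.82) and Rps6ka1 (0.82). Among the members, which are part of the sum, Aldoa (0.87), Gpi1 (0.85), Pgk1 (0.84) and Pkm (0.83) were close to it, while Hk2 was at -0.03. These coefficients are descriptions over populations that share libraries and classes.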

How the data were processed

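Per the labels, lungs were dissociated with collagenase and dispase and single cells were run on 10x 3′ v3 chemistry. The authors ran Cell Ranger (3.1 in their processing notes, 3.1.0 in the file headers of the E13.5 and whole-lung libraries and 3.0.2 in the others) on mm10 and deposited the UMI counts as unscaled whole numbers. For the whole lungs they also deposited expected counts, which SoupX had corrected for free RNA. These set the limits on genes and mitochondrial share per cell in the whole lungs and gave 1 alternative, with limits on the raw counts as another. Samples were grouped by their labels.

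UMIs were summed over the cells of a class and library and expressed as CPM, in Python 3.11.15 with numpy 2.4.6, scipy 1.17.1 and pandas 2.3.3. Levels have exact Poisson, shares exact binomial (Clopper-Pearson) and ratios exact conditional intervals, all of 95%. They cover counting error only, since UMIs of 1 library are not replicates. A class needed 50 cells, which erythroid cells did not reach. No doublet caller was run, and cells that met several gates were left out. The scripts were tested on simulated counts. All 10 members were named, and other pathway genes and companion lists came from fixed lists. The members and lists were chosen with earlier results of these data known. Since a 3′ tag marks 1 end of a molecule, CPM was not divided by length, and no order between genes was drawn. Transcript ends were compared with GENCODE M21 for shared stretches of 60 bases, and positions are on GRCm38.

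Alternatives were gates doubled, cells of several gates kept, at least 1000 genes, no mitochondrial limit, means over cells, cells of 4000 to 12000 UMIs, totals without mitochondrial, ribosomal and haemoglobin genes, TMM factors, a pseudocount of 5 CPM, no minimum, cells without Top2a UMIs, Mki67 as cycling gate and SoupX counts. The results for mesenchymal cells over time, for endothelial subsets, also over time, and for classes of the library labelled null were added after the data were seen.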

Additional observations from a re-analysis of the deposited data

How the results depend on the processing

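Of 446 recounts of members past 1.5-fold over 39 comparisons, 402 stayed within 1.5 times the reported count, and of 1110 recomputed ratios of members past the threshold 0 changed direction and 46 fell under it. The cause of each of the following moves was not tested, except that dropping the CPM minimum tests more genes. Most of these recounts have no share of all genes beside them, so they show only how the counts of members moved. Without the minimum the counts were 2 for endothelial cells between E13.5 and E15.5, 4 for mesenchymal cells between E18.5 and P8, 2 for cycling endothelial cells at E15.5, 3 for cycling epithelial cells, and 3, 3 and 2 for the Gja4/Gja5 split at E15.5 and in the libraries labelled null and control. With cells of 4000 to 12000 UMIs they were 1 for E15.5 to E18.5 in endothelial and in mesenchymal cells, 2 for cycling endothelial cells labelled null, 4 for immune over endothelial cells labelled null, 1 each for the labels in epithelial and immune cells, and 1 for Car4-high cells at P8. With cells of several gates kept they were 1 for mesenchymal cells at P8, 2 for mesenchymal over endothelial cells at P8, 0 and 0 for cycling endothelial cells of the whole lungs, 2 for cycling mesenchymal cells labelled control, 1 for the labels in epithelial cells, and 1 and 0 for the split at E18.5 and in the library labelled null. Without ribosomal, mitochondrial and haemoglobin genes they were 4 for mesenchymal cells at P8, 1 and 3 for cycling endothelial and mesenchymal cells at E15.5, 2 for cycling epithelial cells, and 2 and 2 for the split at E15.5 and in the library labelled null. TMM scaling gave 6 for cycling epithelial cells, where 1207 of 5471 genes were higher and 1192 lower. It gave 1 for the split at E18.5, where 572 of 6128 genes were higher and 647 lower. Means over cells gave 2 for cycling endothelial cells at E18.5, and 1 and 0 for the split at E18.5 and in the library labelled null, and adding 5 CPM gave 1 at E18.5. No mitochondrial limit gave 2 for cycling mesenchymal cells at E15.5, where other cells without a Top2a UMI also gave 2, and the Mki67 gate gave 2 there, 2 for cycling endothelial cells at E18.5 and 2 for cycling mesenchymal cells labelled control. SoupX counts gave 3, 5, 4 and 1 for the labels in endothelial, mesenchymal, epithelial and immune cells. Endothelial cells of the Gja4/Gja5-high set gave 1 for E15.5 to E18.5. No paired analysis was possible because the labels carry no replicate numbers and each condition was 1 library.

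TMM scaling moved the median log2 ratio of all genes by over 0.1 in several comparisons, by 0.16 for endothelial cells from E15.5 to E18.5 and 0.27 for immune over endothelial cells labelled control. The share of higher among all calls then went from 42.8% to 66.6% for endothelial cells from E13.5 to E15.5, 66.4% to 47.4% from E15.5 to E18.5 and 68.1% to 57.3% from E15.5 to P8, and from 63.4% to 50.04% and 61.5% to 45.5% for mesenchymal cells from E15.5 to E18.5 and E18.5 to P8. It went from 45.7% to 34.4% for mesenchymal over endothelial cells at E15.5, 62.4% to 72.6% and 70.8% to 50.3% for cycling mesenchymal cells at E13.5 and cycling epithelial cells, 31.9% to 44.2% and 40.1% to 55.1% for epithelial and immune over endothelial cells labelled control, 60.5% to 70.7% for the labels in mesenchymal cells, and 55.8% to 44.5% and 56.1% to 43.5% for the split in the libraries labelled null and control. Depth limited Hk2 and Pfkp in the 172 endothelial cells at E13.5 and the members under 50 CPM in the 68 mesenchymal cells at P8 (4 to 12 UMIs each).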

Other observations

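Some pathway genes outside the 10 also differed between classes or over time. In the library labelled control, Ldhb was at 82.0 CPM in mesenchymal and 21.5 CPM in endothelial cells, a log2 ratio of 1.91, while Ldha of the same cells was within 0.19. In sorted endothelial cells Slc2a1, the main glucose transporter of vessels, was at 29.2, 23.6, 23.8 and 3.86 CPM from E13.5 to P8, under the 20 CPM minimum on the mean of E18.5 and P8, and Pdk1, which keeps pyruvate out of the citric acid cycle, was at 6.49, 11.2, 16.7 and 17.4 CPM.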
